A study of Mus musculus with 2 samples.

Results

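Connexins and pannexins form the channels through which neural cells share ions and small molecules, and 10 of their genes are described here: Gja1, Gja3, Gja4, Gja5, Gjb1, Gjb2, Gjb6, Gjc1, Gjd2 and Panx1. They were chosen by gene family from earlier results of the same arrays, in which the log2 differences of Gja1 had been seen, so every value below is a description. A gene was taken with each of its probe sets, the groups of short probes that an Affymetrix array carries for a transcript, where the annotation gave that probe set 1 gene symbol. This left 19 probe sets, of 45037 in all, and 10 genes of the 18193 that had a symbol of their own. Gja1 had 6 probe sets, Gja3, Gjb1, Gjc1 and Gjd2 had 2 each, and the other members had 1 each.

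The study asked which small interfering RNAs (siRNAs) let neural stem cells outlive DNA damage. Both groups were ANSO4E cells, a mouse neural stem cell line from a transgenic animal whose background was C57BL/6JxSJL/JF1 oocytes with BDF1 sperm. Both were grown with b-FGF and EGF and infected with the GeneNet genome-wide lentiviral library of siRNAs against mouse transcripts. The reference control was left untreated, and the MNNG survivors were the cells that lived through 2 treatments with 500 µM of the alkylating agent N-methyl-N′-nitro-N-nitrosoguanidine (MNNG), for which 15 min of exposure is given. Each group was read on 1 Affymetrix mouse genome array, so no difference has a replicate check, and no test between groups was possible. Labeled PCR products of the inserts were hybridized, and a signal is taken here as the abundance of inserts that a probe set can read, not as expression. The neural identity of the line could therefore not be checked on its markers. Insert sequences were not analysed here.

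Connexins cross the membrane several times, and a ring of them makes a hemichannel that docks with one on the next cell to form a gap junction. Pannexins share this membrane layout without clear likeness in sequence, and they mostly open to the outside, where they release ATP. In brain, Gja1 and Gjb6 are the main connexins of astrocytes, Gjd2 that of electrical synapses between neurons, and Gjb1 a connexin of oligodendrocytes. Gja1 junctions also carry signals between neural precursors, and in injured tissue they can pass death signals or protective ones.

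Gja1, which encodes connexin Cx43, was lower in the MNNG survivors at 5 of its 6 probe sets and equal at the other. Probe set 1437992_x_at read 9.44 (log2 signal) on the control array and 0.83 on the survivor array, a difference of -8.61. Probe set 1438945_x_at had 5.90 and 0.14, a difference of -5.76. Probe set 1438973_x_at had 3.14 and 1.70, a difference of -1.44. The probe sets that were brightest in the reference control thus had the largest losses. Probe set 1438650_x_at had 2.19 and 1.28, a difference of -0.91. Probe set 1415800_at had 1.41 and 0.92, a difference of -0.49, and 1415801_at had 1.26 on both arrays. The last pair was designed on the same transcript record, and their control signals ranked 4519 and 6409 among the 45037 of that array. The median log2 difference over the 6 probe sets was -1.18, and their range of 8.61 ranked 5 among the 244 genes with 6 probe sets, whose median range was 1.44. No single value stands for Gja1 on these arrays.

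**Figure D1:**
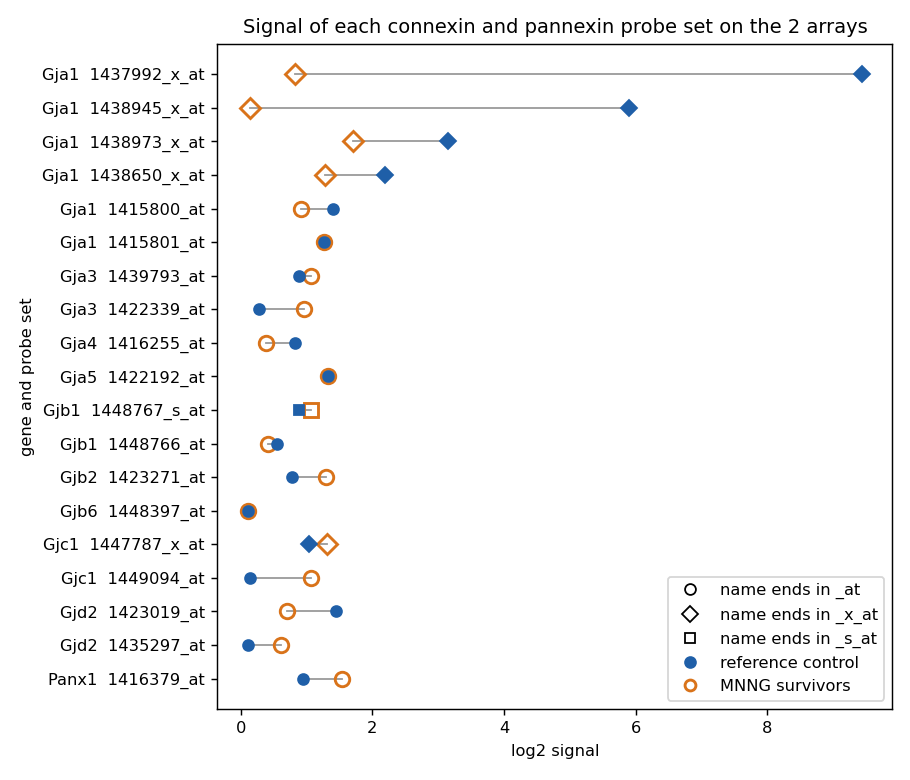
Log2 signal (horizontal axis) of each member probe set (vertical axis) in the reference control (blue, filled) and the MNNG survivors (orange, open), joined by a line; the symbol shape gives the ending of the probe set's name. The upper Gja1 probe sets run from 9.44 and 5.90 down to 0.83 and 0.14, while the probe sets of the other 9 genes stay between 0.11 and 1.54.

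Across the whole array, 3.93% of probe sets had survivor signals lower by over 1 on the log2 scale, 3.75% were higher by over 1, and 1.01% were lower by over 2.5. Of the 19 member probe sets, 3 were lower by over 1, 2 of them by over 2.5, and 0 were higher by over 1. All 3 belong to Gja1, so the count describes 1 gene that was known to differ when the members were chosen. The largest loss ranked 11 and the next 116 among the 45037 differences, ordered from the most negative. In the reference control the same probe sets ranked 10 and 189 by signal, and in the survivors they lay at percentiles 57.2 and 2.83 of the array.

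The 4 Gja1 probe sets with differences of -0.91 or below have names ending in _x_at, which marks sets with probes that may also bind unrelated transcripts. On the whole array such probe sets made up 5.42% of the total but 36.2% of the 301 probe sets with a control signal above 5. Of all _x_at probe sets 15.0% had a difference below -1, against 2.66% of those with the plain ending _at. Of the 32 genes with 4 or more _x_at probe sets, 22 had at least 1 that was lower by over 1 and 12 had at least 2. In 5 of the 32, Gja1 included, every _x_at probe set was lower, by any amount. Of all _x_at probe sets on the array, 46.7% were lower. The plain probe sets of Gja1 had differences of -0.49 and 0.00. The part of other inserts or transcripts in the _x_at signals was not tested.

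Bright control signals were rarely kept on the survivor array. The 301 probe sets with a control signal above 5 had a median survivor signal of 0.92, and 160 of them were below 1. Within 0.5 log2 units of the control signal of 1437992_x_at lay 14 probe sets of other genes or of no named gene, and 14 of them had a difference below -1. Their median survivor signal was 0.76 (25th to 75th percentile 0.43 to 1.46), beside 0.83 for Gja1. Around the control signal of 1438945_x_at there were 105 such probe sets, of which 99 were lower by over 1, with a median survivor signal of 0.85 beside 0.14 for Gja1. Around 1438973_x_at there were 436, with a median of 1.99 beside 1.70, and around 1438650_x_at 1709, with a median of 1.41 beside 1.28. The survivor signals of these 4 Gja1 probe sets were thus close to those of similarly bright probe sets, except for 1438945_x_at, where 12 of the 105 lay lower still. Of the plain probe sets, 1415800_at had 0.92 beside a median of 0.96, and 1415801_at had 1.26 beside 0.86.

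**Figure D2:**
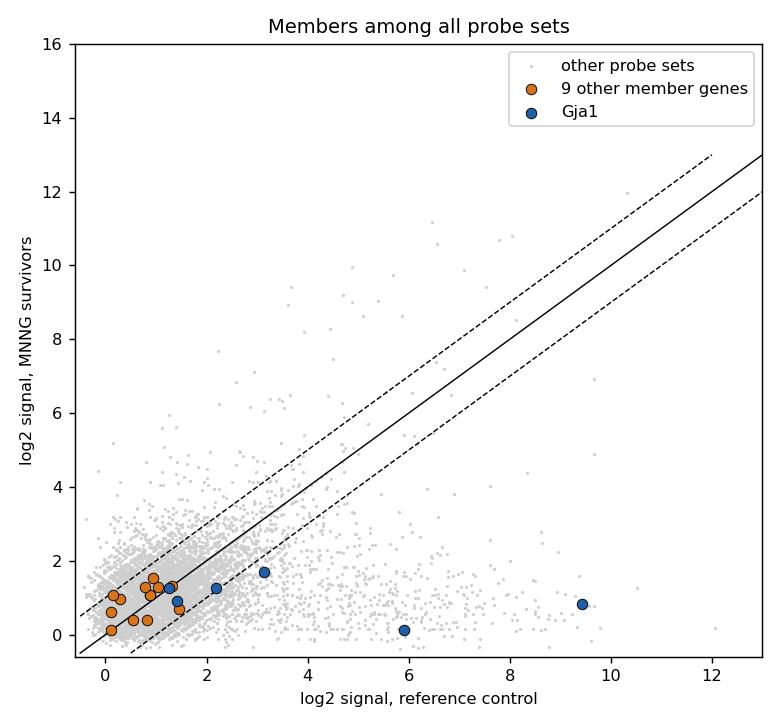
Log2 signal in the MNNG survivors (vertical axis) against that in the reference control (horizontal axis), with 1 point per probe set; grey points are all others, orange points the 9 other member genes and blue points Gja1. The solid line marks equal signals and the dashed lines differences of 1 and -1; the blue points at 5.90 and 9.44 lie in a band of grey points that were bright in the control and near the common level in the survivors.

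The 9 other members had small differences in both directions, all between -0.75 and 0.92 on the log2 scale. Their 13 probe sets divided into 8 with higher survivor signals, 3 with lower and 2 with equal ones, and the median difference was 0.18. For the whole array these shares were 44.2%, 36.4% and 19.4%, and the median was 0.00. Probe sets within 0.5 log2 units of a member's control signal had median differences that varied with that signal. The median was -0.25 around the brightest of the 13, 1423019_at of Gjd2. It was 0.29 around the dimmest, those of Gjb6 and 1435297_at of Gjd2. None of the 13 had a control signal above 2, against 4 of the 6 Gja1 probe sets and 1732 of the 45037 on the whole array. Probe sets differ in how strongly they respond, so these counts do not rank inserts of 1 gene against those of another. In the survivors 0 of the 19 member probe sets were above 2, as were 1338 of the 45037 on the whole array.

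Among the alpha connexins, Gja3, known as Cx46 of the eye lens, read 0.28 (log2 signal) on the control array and 0.96 on the survivor array at 1422339_at, a difference of 0.68. Its other probe set, 1439793_at, had 0.89 and 1.07, a difference of 0.18. Gja4, the Cx37 of arterial endothelium and of the oocyte, had 0.82 and 0.39, a difference of -0.43. Gja5, the Cx40 of atrial muscle and endothelium, had 1.33 on both arrays. In sign alone, Gja4 thus ran the same way as Gja1, while the probe sets of Gja3 ran the other way. The size of the Gja4 difference was shared by 3251 other probe sets.

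The beta connexins are shorter proteins, and those listed here are found in glia, meninges, liver and inner ear. Gjb1, the Cx32 of myelinating cells, read 0.55 on the control array and 0.41 on the survivor array at 1448766_at, a difference of -0.14. Its probe set 1448767_s_at had 0.89 and 1.07, a difference of 0.18, so the sign for Gjb1 turned with the probe set. Gjb2, the Cx26 that is mutated in inherited deafness, had 0.78 and 1.30, a difference of 0.52. Gjb6, the astrocyte connexin Cx30, had 0.12 on both arrays, near the bottom of each. The single probe set of Gjb6 lay at percentiles 3.68 and 2.46 of the arrays.

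Gjc1, the Cx45 of early heart and of some neurons (formerly Gja7), read 0.14 on the control array and 1.07 on the survivor array at 1449094_at. That difference of 0.92 was the largest gain among the members and stayed below 1. Its other probe set, 1447787_x_at, had 1.04 and 1.30, a difference of 0.26. This was the only member probe set outside Gja1 with the _x_at ending, and it was not lower in the survivors. Gjd2, the Cx36 of neuronal electrical synapses, had 1.45 and 0.71 at 1423019_at, a difference of -0.75, and 0.11 and 0.60 at 1435297_at, a difference of 0.49. Its probe sets disagreed in sign. Panx1, the widespread pannexin that opens after caspase cleavage and supplies ATP as a signal from dying cells, had 0.94 and 1.54, a difference of 0.60, at its 1 probe set.

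Many of these small differences were values that other probe sets also had, digit for digit. To 4 decimals, the 45037 differences took 856 sizes without regard to sign, and 8737 were equal on both arrays. The pair of signals of Gjb1 at 1448767_s_at was the same as that of Gja3 at 1439793_at and was found in 307 probe sets besides each. The signals of Gjc1 at 1449094_at were found in 133 others, among them a probe set of Panx3. The difference at 1415800_at of Gja1 had the same size as that at 1435297_at of Gjd2, with the opposite sign, and 1544 others matched it. For all 13 probe sets of the 9 genes, another probe set had a difference of the same size, with between 37 and 8736 matches. For Gja1 the same held for 4 of 6 probe sets, and the differences of -8.61 and -5.76 had 0 matches. How the repeated values arose was not tested.

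**Figure D3:**
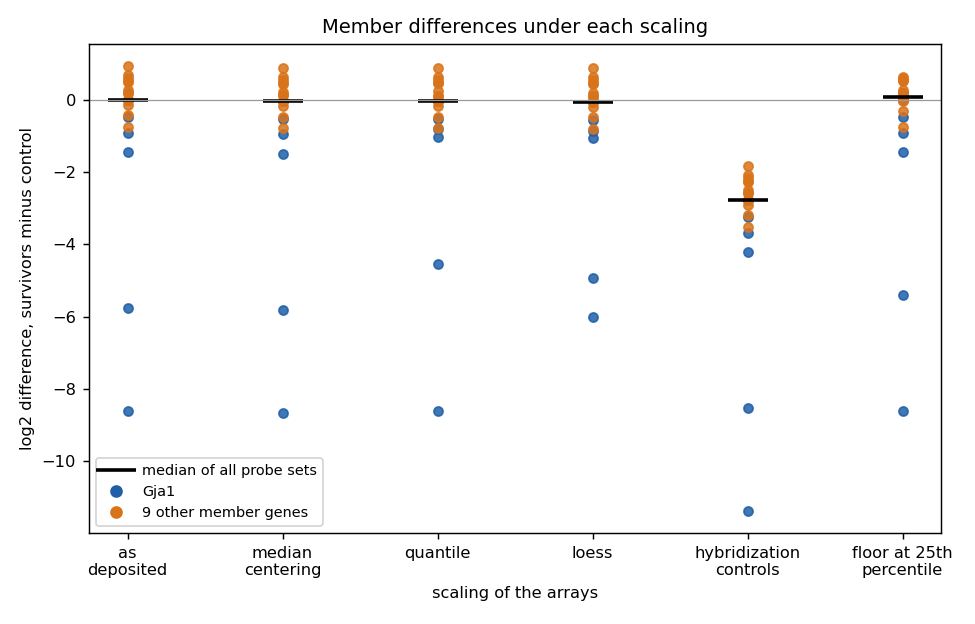
Log2 difference (survivors minus reference control, vertical axis) of the 19 member probe sets under each scaling of the arrays (horizontal axis); blue points are Gja1, orange points the 9 other genes and black bars the median of all probe sets. The lowest Gja1 point lies between -11.4 and -6.01 throughout, and centering on the hybridization controls moves all points down by 2.77.

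The directions of the small differences depended on the scale. All 18 hybridization controls, foreign sequences added to each array in set amounts, were brighter on the survivor array, by a median of 2.77. Centered on them, 19 of 19 member probe sets had lower survivor signals, with differences from -3.51 to -1.84 for the 9 other genes, and 99.5% of the whole array had a difference below -1. Relative to the median of all probe sets, which then stood at -2.77, the pattern was that of the deposited values. With median centering, quantile normalization or loess, 8 of the 13 probe sets of the 9 genes were higher and 5 lower, and 6 of 6 Gja1 probe sets were lower, although the highest of these differed by only -0.05, -0.04 or -0.06. The loss at 1437992_x_at was -8.66, -8.62 and -6.01 under those scalings.

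The rest of the family gave values like those of the 9 genes. Of 13 further connexin and pannexin genes, 7 were measured by probe sets with 1 symbol, 10 probe sets in all, and the others were not analysed here. Survivor signals were higher at 7 of the 10 probe sets, lower at 1 and equal at 2, with differences from -0.25 to 0.92 and 0 past 1 in either direction. The whole array had 44.2% higher, 36.4% lower and 19.4% equal, with 3.75% higher by over 1 and 3.93% lower by over 1. Panx2, the pannexin of mature neurons, read 0.69 on the control array and 1.47 on the survivor array, a difference of 0.78. Panx3, known from bone and cartilage, had 0.14 and 1.07 at 1432860_at and 0.11 and 1.03 at 1454387_at, both differences of 0.92. Its probe set 1456073_s_at was the exception in level, with 3.26 and 3.01, a difference of -0.25, so a signal above 3 was kept in the survivors there. Gja10, found in horizontal cells of the retina, had 0.34 and 1.12, and Gjd4 had 0.33 and 1.02. Gjb5 had 0.79 and 1.08, and Gje1 had 0.24 and 0.53. Gjc3, the Cx29 of myelinating glia, had equal values at both its probe sets, 0.73 and 0.57.

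With 2 arrays, likeness to Gja1 can be measured only as the distance between pairs of log2 signals. The nearest 5 probe sets to 1437992_x_at lay within 0.61 log2 units and belonged to 4 genes. Tmeff1, a membrane protein with follistatin modules, read 9.29 on the control array and 1.04 on the survivor array, at a distance of 0.25. Zdhhc14, a palmitoyltransferase, had 9.23 and 0.57 at a distance of 0.33 and, at another probe set, 9.06 and 0.38 at 0.58. Smpd4, a neutral sphingomyelinase, had 9.02 and 0.57 at 0.49, and Pigq, of glycosylphosphatidylinositol synthesis, had 8.93 and 1.16 at 0.61. The bright probe set of Smpd4 has a name ending in _a_at, and those of the other genes end in _x_at. Most of the other probe sets of these genes did not share the loss, and each of the 4 genes had at least 1 probe set with a higher survivor signal. Gja1 had none, although its plain probe sets differed by only -0.49 and 0.00. The other probe set of Tmeff1 had 0.33 and 1.02, and the others of Smpd4 had differences from -0.52 to 0.78. Pigq had a further difference of -6.37 at an _x_at probe set, against differences from -1.01 to 1.01 at the others, and Zdhhc14 had differences from -0.69 to 1.18 at its others, 3 of them _x_at probe sets with 0.29, -0.48 and -0.69.

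Genes whose products act on gap junctions were taken at their probe set of highest mean signal. Over all 18193 genes taken in this way, 43.5% had higher survivor signals and 38.1% lower ones, and the median log2 difference was 0.00. Of these genes 4.78% were higher by over 1 and 5.45% were lower by over 1. Of 24 measured partners and scaffolds of connexins, 9 were higher, 10 lower and 5 equal, with a median of 0.00, and 2 were past 1 in each direction. Ctnna1, the alpha-catenin that ties cadherin junctions to actin, read 4.87 on the control array and 0.63 on the survivor array at an _x_at probe set, a difference of -4.24, while its 3 other probe sets had differences between 0.18 and 0.78. Ctnnb1, beta-catenin, had 1.46 and 0.26, a difference of -1.20, and was lower at all 3 of its probe sets, with differences up to -0.39. F11r, a tight junction adhesion molecule, had 0.78 and 2.29, a difference of 1.51, and its second probe set had one of 0.49. Nedd4, a ubiquitin ligase that takes Cx43 from the membrane, had 0.88 and 2.19, a difference of 1.30, but differences of -0.43 and 0.25 at its others.

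Of 23 measured kinases and phosphatases that act on connexins, 14 had lower survivor signals, 5 higher and 4 equal ones, and the median log2 difference was -0.19. The median turned to 0.25 with the probe set of lowest mean signal taken for each gene. Csnk1d, the casein kinase that phosphorylates Cx43 during junction assembly, had 3.55 and 0.84 at an _x_at probe set, a difference of -2.71, and 2.12 and 0.68 at an _s_at probe set, with differences from -0.32 to 0.25 at its 3 others. Csnk1e, its close relative, had differences of -0.75, -0.25 and 0.00 at its probe sets. Ppp3ca, the catalytic subunit of calcineurin, had 1.67 and 0.98, and equal values on both arrays at its other probe sets. Tyk2, a Janus kinase, had 0.78 and 1.70, a difference of 0.92, and one of 0.29 at its other probe set. Of the 23 genes, 1 was lower by over 1 and 0 were higher by over 1, beside 5.45% and 4.78% of all genes.

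Around Panx1, 24 genes of ATP signaling and of the inflammasome were measured, 10 with lower survivor signals, 8 with higher and 6 with equal ones, and the median log2 difference was 0.00. Entpd1, the ectonucleotidase CD39 that degrades extracellular ATP, read 0.60 on the control array and 2.84 on the survivor array, a difference of 2.24 that its 2 other probe sets (-0.25 and -0.14) did not share. Entpd2, a related enzyme, had 1.26 and 0.14, a difference of -1.12. P2ry6, a receptor for UDP, had 1.52 and 0.61, and P2ry14, a receptor for UDP-sugars, had 0.26 and 0.95.

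The markers of neural stem cells, glia and neurons were measured in the same way because Gja1 is itself an abundant transcript of such cells. Of 26 measured markers, 13 had higher survivor signals, 12 lower and 1 an equal one, and the median log2 difference was 0.09. Their control signals ran from 0.26 to 7.34 (median 0.98) and their survivor signals from 0.03 to 2.59 (median 1.13). Of the 26, 3 were lower by over 1 and 2 were higher by over 1, where all genes had 5.45% and 4.78%. Mbp, myelin basic protein, had 7.34 and 0.74, a difference of -6.60, and 2.03 and 0.23 at a second of its 8 probe sets, a difference of -1.80. Its other probe sets had differences from -0.25 to 0.48. Olig2, a transcription factor of the oligodendrocyte lineage, had 3.51 and 1.19, a difference of -2.32 at its 1 probe set. Gfap, the filament protein of astrocytes, had 3.45 and 1.57, a difference of -1.89, where its others had -0.32 and 0.00. In the other direction Cspg4, the NG2 proteoglycan of oligodendrocyte precursors, had 0.89 and 2.37. Slc1a3, the glutamate transporter GLAST of astrocytes and radial glia, had 0.71 and 1.94, a difference of 1.23. Its 6 probe sets ran from -0.39 upward, and it was named after its values were seen. Further markers were named in the same way. Over their probe sets, differences ran from -0.75 to 0.43 for Aqp4, from -0.14 to 0.92 for S100b and from -0.68 to 0.00 for Pdgfra. Aldh1l1 had 0.00. The stem cell markers Nes, Sox2, Pax6, Msi1, Prom1 and Fabp7 had control signals of 0.67, 1.15, 0.87, 0.93, 1.26 and 0.43. At these probe sets, those of highest mean signal, their differences were 0.29, 0.18, -0.32, 0.23, -0.04 and -0.39. Over all its probe sets, Pax6 ran from -0.43 to 0.43, Nes from 0.00 to 0.29 and Msi1 from 0.00 to 0.59. Taken likewise, the neuron markers Tubb3, Dcx, Map2 and Rbfox3 had 0.59, -0.37, -0.19 and 0.23. The sign turned with the probe set for Dcx, Map2 and Rbfox3. The microglia markers Aif1, Cx3cr1 and Itgam had 0.79, 0.43 and -0.23. The labels give genomic DNA as the source of the inserts, whereas the methods of the study copy RNA, and the part of cell transcripts in the signals of Gja1 was not tested.

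**Figure D4:**
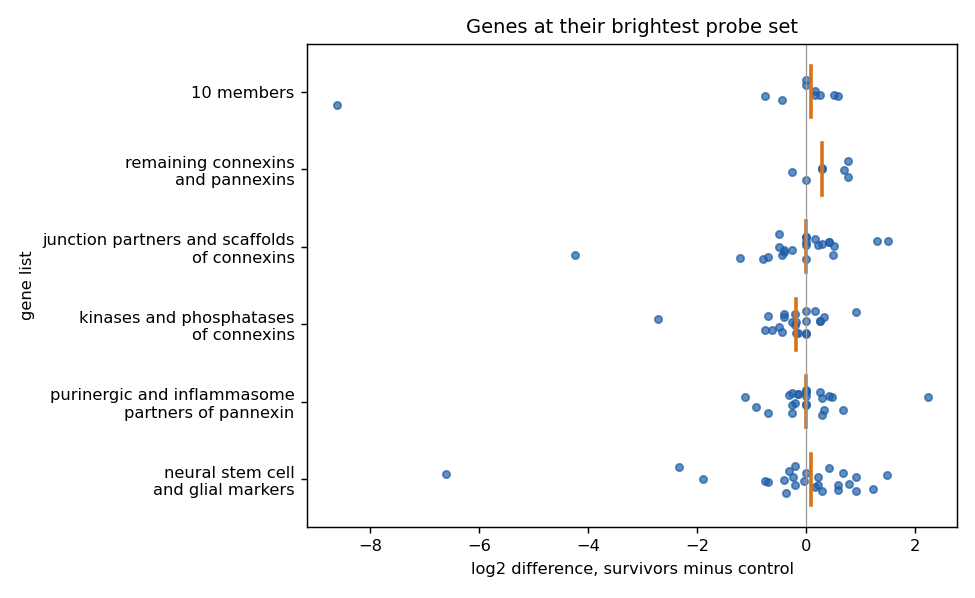
Log2 difference (survivors minus reference control, horizontal axis) of each gene at its probe set of highest mean signal, by gene list (vertical axis), with blue points for genes and an orange line for the median of each list. The medians lie between -0.19 and 0.29, and the lowest point among the members is Gja1 at -8.61.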

How the data were processed

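The deposited table holds a log2 signal for each probe set, made by the authors with RMA per the labels (background correction, normalization and summary of the probes). The program that ran RMA is not given in the sources used here. Signal distributions differed between the arrays, with medians of 0.69 (reference control) and 0.74 (MNNG survivors) and 99th percentiles of 4.11 and 2.68. Of the probe sets analysed, 34945 carried 1 gene symbol, 932 several and 9160 none, once 64 Affymetrix controls had been set aside. Symbols come from the annotation of the array and were updated through the gene ID for 34741 probe sets with a RefSeq table of GRCm38.p6, used for names only.

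Differences are survivors minus reference control on the scale as deposited, without a filter. A size of 1 was counted, and no count is a test. The number of arrays limits the precision, and detection calls were not used. The members and the 5 other gene lists were chosen with earlier results of these data known. Named were all members and measured relatives, up to 4 genes with the largest difference in each other list, and the 5 nearest probe sets to the Gja1 probe set of largest difference. Further markers were named after their values were seen. Alternatives were median centering, quantile normalization, loess (fraction 0.3), a floor at the 25th percentile, centering on 18 hybridization controls, other sizes, other probe sets and signal filters. The counts past 1, the choice of the probe set of highest mean signal and quantile normalization were tested on simulated data, and the other steps were not. The software was Python 3.11.15 with statsmodels 0.14.6, scipy 1.17.1, pandas 2.3.3, numpy 2.4.6 and, for plots, matplotlib 3.10.9.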

Additional observations from a re-analysis of the deposited data

How the results depend on the processing

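With 1 array per condition, values are called moved below where an alternative shifted them past 0.45, the median absolute deviation (scaled to an SD) of the log2 differences over the array. Over the scalings and the floor, 22 of 95 values of single member probe sets moved. Changes of sign were counted only past a difference of 1, at 3 Gja1 probe sets that were all lower, and 0 changed. Smaller differences did change sign: 8 member probe sets were higher as deposited and 0 after centering on the hybridization controls. That centering moved 19 of the 22 values, and it set 19 member probe sets lower by over 1 and their median at -2.77. The other 3 were Gja1 losses: 1437992_x_at had -6.01 after loess, and 1438945_x_at had -4.93 after loess and -4.55 after quantile normalization. Without probe sets ending in _x_at, _s_at or _a_at, 0 member probe sets were lower by over 1, because the 3 that were all end in _x_at. At a size of 0.5, 4 were higher and 5 lower, but the share of the whole array past that size was not counted. The 25th and 75th percentiles of all differences were -0.25 and 0.33. At 2.5, 0 member probe sets were higher and 2 lower, where 1.01% of the whole array was lower. Without Gja1, an alternative chosen after seeing the data, 0 were lower by over 1 and the median was 0.18. Centering on the hybridization controls also moved the medians of the other lists, to -2.48 for the remaining connexins and pannexins, -2.77 for partners and scaffolds, -2.95 for kinases and phosphatases, -2.77 for purinergic and inflammasome genes and -2.68 for the markers. Of 25 further alternatives for these medians 0 moved, although that of the kinases and phosphatases turned from -0.19 to 0.25 with the probe set of lowest mean signal. No paired analysis was possible because each condition had 1 array.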
